A study of Drosophila melanogaster with 8 samples.

Results

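The cuticle protein genes of Drosophila melanogaster were followed in head RNA from vriΔ679 mutant and wild-type flies. Members were taken by symbol, as every gene whose name begins with Cpr and a digit, Ccp84, Lcp or Twdl, and transcript FPKM was summed per gene. The rule found 117 of the 16727 gene symbols listed, namely 70 Cpr, 7 Ccp84, 15 Lcp and 25 Twdl genes. Of these, 46 reached 1 FPKM in at least 2 libraries and were tested with the other genes that did so, 10122 in all.

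The insect cuticle is a layered extracellular sheet of chitin fibres and proteins that the epidermis secretes at its outer face. Most Cpr, Ccp84 and Lcp genes encode proteins with the Rebers and Riddiford domain, which binds chitin, and the Twdl genes encode the Tweedle family, a separate group of structural cuticle proteins named for a mutant with a squat body. The adult fly goes on adding inner cuticle (endocuticle) in daily layers after it emerges, and the clock of the epidermal cells sets that rhythm. Head cuticle also includes the corneal lenses of the compound eye, which hold cuticle proteins of their own. The vri gene (vrille) encodes a basic leucine zipper repressor of Clk in the circadian clock, and in flies it has further roles in the growth of wings, hairs and tracheae.

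The groups compared, of 2 libraries each, were vriΔ679 at ZT14, wild type (strain w1118) at ZT14, vriΔ679 at ZT2 and wild type at ZT2. ZT is the time in hours after lights on, so ZT2 falls early in the day and ZT14 early in the night of a cycle of 12 h light and 12 h dark at 25 °C, which the flies had kept for 3 days. RNA was poly(A)-selected from heads, and sex and age are not given in the labels. Nothing states that replicates came from separate flies or cultures, so p-values measure only the spread between these samples, and vriΔ679 cannot be told apart from other differences between the stocks. The tables imply 49.3 to 65.4 M mapped reads in a library, at which 3 reads on a transcript of 1 kb are worth 0.0458 to 0.0609 FPKM. The labels give 4 libraries to a sequencing run but not which ones, so run and group cannot be told apart. Photoreceptor and neuron markers were detected in every library.

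The genotype labels were checked with the 3 vri transcripts of the long form, which start at 5305650 on 2L. These made up 95.5 to 99.6% of vri FPKM in the 4 wild-type libraries. In the vriΔ679 libraries they made up 1.00% at ZT14 in replicate 1, and 0.504% and 0.275% at ZT2. The library labelled vriΔ679 ZT14 replicate 2 went against its label, with 74.1%, and night counts and the main night differences are given below with and without it. Without it, many more of all genes were called, so most counts from that fit are given with their own share of all genes. The opposite time calls have no such share.

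At night the summed level of the cuticle protein genes was lower in vriΔ679 than in wild type, and in the morning the genotypes were closer. The sum over the 117 genes was 1640.2 and 1199 scaled FPKM in vriΔ679 at ZT14, against 2715 and 3249 in wild type at ZT14. At ZT2 it was 1883 and 2042 in vriΔ679, against 1879 and 1721 in wild type. Scaled FPKM is the gene's FPKM divided by the library's median-of-ratios factor, and all levels below are in this unit. The 2 genotypes did not overlap at either time, and the night values of vriΔ679 lay below all 6 other libraries. As shares of all FPKM, the sums were 0.266% and 0.235% in vriΔ679 at ZT14 and 0.497% and 0.586% in wild type at ZT14.

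Expression in the head was uneven across the families. Of the 117 genes, 68 stayed under 1 FPKM in all 8 libraries, and 15 of those were listed at 0 in each. The tested genes were 35 of 70 Cpr, 3 of 7 Ccp84, 4 of 15 Lcp and 4 of 25 Twdl genes. A run of 12 Twdl genes on 3R (dm6, 26619118 to 26641054), from TwdlM to TwdlD, summed to at most 0.320 scaled FPKM in a library, and 4 of the 12 were listed at 0 throughout. The 6 genes with the highest mean levels, in order Cpr65Au, Cpr100A, Cpr62Bc, Cpr67B, Cpr49Ae and Cpr49Ag, held 63.6 to 65.9% of the summed FPKM of the family genes in each library. One tested gene, Cpr92A, passed the filter on low values through wild-type ZT14 alone, so its difference there follows from the filter and supports nothing. Leaving it out, the counts below become 25 lower of 45 for genotype at ZT14 and 17 higher of 45 for time in wild type.

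At ZT14, 26 of the 46 tested genes were lower in vriΔ679 than in wild type and 3 were higher (limma, Benjamini-Hochberg adjusted p under 0.05). Over all 10122 genes tested, 12.8% were lower and 9.53% were higher. The median log2 difference of the 46 was -0.9998, against -0.01 over all genes tested. In each of the 29 called genes the genotypes' libraries did not overlap, which with 2 libraries a side adds little to the calls. The share of non-overlapping genes over all genes tested was not counted. Without the library labelled vriΔ679 ZT14 replicate 2 the counts were 25 lower and 5 higher, in a fit where 26.7% of all genes were lower and 24.9% higher. Without wild-type ZT14 replicate 2 they were 17 and 1 (3.98% and 1.81% of all genes), without wild-type ZT14 replicate 1 they were 19 and 0 (5.45% and 1.99%), and without vriΔ679 ZT14 replicate 1 they were 25 and 1 (13.6% and 7.76%). The calls of 17 of the 26 lower genes, and of 0 of the 3 higher ones, held whichever library was left out. In bulk head RNA, fewer cells of a type and less RNA per cell cannot be told apart.

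**Figure D1:**
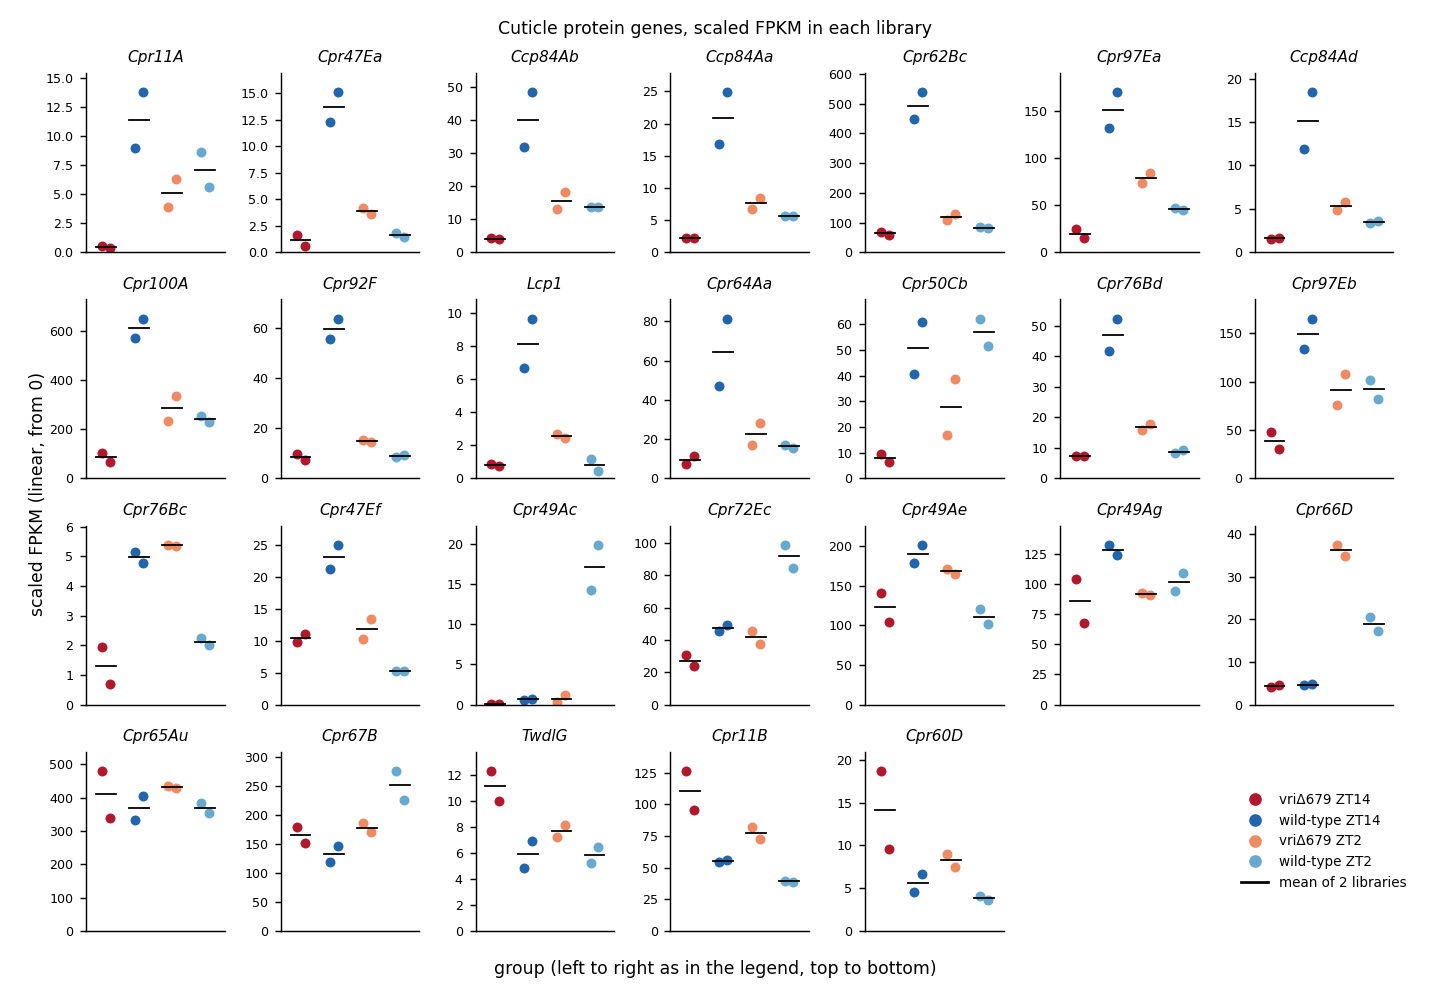
Scaled FPKM of 26 cuticle protein genes in the 8 libraries, on linear axes from 0, ordered by their genotype difference at ZT14. Points are libraries and lines are means of 2 libraries, with vriΔ679 ZT14, wild-type ZT14, vriΔ679 ZT2 and wild-type ZT2 from left to right. In the first 2 rows wild-type ZT14 stands above vriΔ679 ZT14 in every panel, while Cpr65Au is level across the groups.

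Among the chitin-binding Cpr genes, those with abundant transcripts included some of the largest night differences. Cpr62Bc (dm6, 3L 1840281 to 1842084) had 67.02 and 59.54 in vriΔ679 at ZT14, 447 and 538 in wild type at ZT14, 109.7 and 129.5 in vriΔ679 at ZT2, and 84.0 and 81.0 in wild type at ZT2. Only wild type at ZT14 was high, and its libraries did not overlap with any other group. The vriΔ679 mean at ZT14 was 63.3 ± 5.29 and the wild-type mean 493 ± 64.3 (SD, n = 2 each), 7.79 times lower in vriΔ679. The log2 difference was -2.95 ± 0.15, adjusted p = 0.000192 by limma, and -2.85, adjusted p = 0.000537 without the library labelled vriΔ679 ZT14 replicate 2.

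Cpr100A (3R 30867521 to 30869184) had 105 and 66.3 in vriΔ679 at ZT14, 573 and 651 in wild type at ZT14, 234 and 337 in vriΔ679 at ZT2, and 253 and 229 in wild type at ZT2. Here too wild type was highest at ZT14, and vriΔ679 was lowest at ZT14, below both morning groups. The log2 difference at ZT14 was -2.86 ± 0.26, adjusted p = 0.000966 by limma, a level 7.14 times lower, and without the library labelled vriΔ679 ZT14 replicate 2 it was -2.52, adjusted p = 0.0012.

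Cpr92F (3R 20669571 to 20672821) had 9.75 and 7.43 in vriΔ679 at ZT14, 55.4 and 63.7 in wild type at ZT14, 15.4 and 14.5 in vriΔ679 at ZT2, and 8.33 and 9.26 in wild type at ZT2. Wild type at ZT14 stood apart from the 3 other groups, whose libraries lay between 7.43 and 15.4. The log2 difference at ZT14 was -2.73 ± 0.15, adjusted p = 0.000197 by limma and -2.54, adjusted p = 0.00038 without that library. Cpr76Bd (3L 19532743 to 19538289) showed the same order of groups, with 7.40 and 7.22 in vriΔ679 at ZT14, 41.9 and 52.3 in wild type at ZT14, 15.9 and 17.8 in vriΔ679 at ZT2, and 8.17 and 9.27 in wild type at ZT2. Its log2 difference at ZT14 was -2.60 ± 0.14, adjusted p = 0.000195, and -2.57 without that library.

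Cpr97Ea and its neighbour Cpr97Eb lie side by side on 3R. Cpr97Ea (3R 27083130 to 27087778) had 24.7 and 14.8 in vriΔ679 at ZT14, 131 and 169.5 in wild type at ZT14, 73.8 and 84.4 in vriΔ679 at ZT2, and 46.6 and 44.7 in wild type at ZT2. The 4 groups did not overlap, with vriΔ679 at ZT14 lowest and wild type at ZT14 highest, and the log2 difference at ZT14 was -2.93 ± 0.24, adjusted p = 0.000715 by limma (-2.56 without the library labelled vriΔ679 ZT14 replicate 2). Cpr97Eb had 47.5 and 30.8 in vriΔ679 at ZT14, 134 and 165 in wild type at ZT14, 76.0 and 107 in vriΔ679 at ZT2, and 102 and 82.2 in wild type at ZT2. Its morning levels overlapped between genotypes, and its night difference was smaller, -1.94 ± 0.26, adjusted p = 0.0041 by limma (-1.62 without that library).

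Among genes with low transcript levels, Cpr47Ea (2R 11251751 to 11253398) had 1.60 and 0.630 in vriΔ679 at ZT14, 12.3 and 15.1 in wild type at ZT14, 4.18 and 3.59 in vriΔ679 at ZT2, and 1.78 and 1.47 in wild type at ZT2. The night libraries of the 2 genotypes were far apart, with a log2 difference of -3.20 ± 0.28, adjusted p = 0.000912 by limma (-2.74 without that library). Its exons overlap those of the odorant receptor gene Or47a on the opposite strand, and the strand setting of the counting is not given in the sources used here, so its level is uncertain. Cpr11A, on X (X 12486970 to 12489448), had 0.521 and 0.390 in vriΔ679 at ZT14, 8.94 and 13.8 in wild type at ZT14, 3.89 and 6.28 in vriΔ679 at ZT2, and 8.61 and 5.62 in wild type at ZT2. vriΔ679 at ZT14 was the single low group, and the log2 difference there was -3.61 ± 0.30, adjusted p = 0.000717 by limma (-3.50 without that library), the largest fall among the 46 genes at night. At higher levels, Cpr64Aa had 7.40 and 11.4 in vriΔ679 and 47.2 and 81.4 in wild type at ZT14, a log2 difference of -2.69 ± 0.34. Cpr47Ef had 9.79 and 11.1 in vriΔ679 and 21.2 and 25.0 in wild type at ZT14, the smaller difference of -1.11 ± 0.16. Both calls held whichever library was left out, at adjusted p of 0.00338 and 0.00508 with all 8 libraries, and without that library the differences were -2.97 for Cpr64Aa and -1.18 for Cpr47Ef.

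The Ccp84 genes sit in 1 run on 3R (6686728 to 6704903), and 3 of its 7 genes were expressed enough to test. Ccp84Ab had 4.30 and 4.00 in vriΔ679 at ZT14, 32.0 and 48.5 in wild type at ZT14, 13.0 and 18.2 in vriΔ679 at ZT2, and 13.8 and 13.7 in wild type at ZT2. Ccp84Aa had 2.19 and 2.18 in vriΔ679 at ZT14, 16.8 and 24.8 in wild type at ZT14, 6.78 and 8.48 in vriΔ679 at ZT2, and 5.62 and 5.61 in wild type at ZT2. Ccp84Ad had 1.52 and 1.65 in vriΔ679 at ZT14, 11.9 and 18.4 in wild type at ZT14, 4.86 and 5.77 in vriΔ679 at ZT2, and 3.39 and 3.62 in wild type at ZT2. The 3 genes shared 1 order of groups, with wild type highest at ZT14, vriΔ679 lowest at ZT14 and the morning groups between. Their log2 differences at ZT14 were -3.10 ± 0.23 (Ccp84Ab), -2.96 ± 0.19 (Ccp84Aa) and -2.88 ± 0.20 (Ccp84Ad), with limma adjusted p of 0.000444, 0.000326 and 0.000417. Without the library labelled vriΔ679 ZT14 replicate 2 they were -3.04, -2.95 and -2.91. All 7 genes of the run summed to 8.47 and 8.17 in vriΔ679 at ZT14, and to 62.0 and 93.5 in wild type at ZT14.

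The Lcp genes were named for the larval cuticle, and 4 of 15 were tested in these heads. Lcp1 had 0.857 and 0.720 in vriΔ679 at ZT14, 6.65 and 9.66 in wild type at ZT14, 2.71 and 2.45 in vriΔ679 at ZT2, and 1.17 and 0.452 in wild type at ZT2. Its night log2 difference was -2.73 ± 0.29, adjusted p = 0.00157 by limma (-2.64 without the library labelled vriΔ679 ZT14 replicate 2). Lcp65Ac (3L 6144819 to 6145393), described after its values were seen, had 6.91 and 6.25 in vriΔ679 at ZT14, 30.6 and 52.2 in wild type at ZT14, 10.2 and 11.4 in vriΔ679 at ZT2, and 18.5 and 19.8 in wild type at ZT2. Wild type at ZT14 was the highest group in both genes, and for Lcp65Ac the log2 difference there was -2.52 ± 0.23, adjusted p = 0.00106 (-2.44 without that library). The other tested Lcp genes, Lcp65Ag2 and Lcp65Ag3, lay between 0.673 and 1.79 in all libraries and were not called in any comparison. Lcp1 and Lcp2, and the Lcp65Ag copies, are close copies whose reads could have been split between them, so their separate levels are uncertain.

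The level of Lcp1 came from different listed transcripts in different groups. The short transcript, of 543 bases, was listed at 0 FPKM in both vriΔ679 libraries at ZT14, at 6.37 and 9.21 in wild type at ZT14, at 2.75 and 2.47 in vriΔ679 at ZT2, and at 0 in both wild-type libraries at ZT2. The long transcript, of 1065 bases, had 0.858 and 0.745 FPKM in vriΔ679 at ZT14, 0.0728 and 0.137 in wild type at ZT14, 0.0371 and 0.0731 in vriΔ679 at ZT2, and 1.14 and 0.445 in wild type at ZT2. Where the gene was low its FPKM was thus assigned to the long transcript, and where it was high to the short one.

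Not every abundant cuticle gene differed. Cpr65Au (3L 6131242 to 6132109), the family gene with the highest mean level, had 480.1 and 339.7 in vriΔ679 at ZT14, 333 and 406 in wild type at ZT14, 434 and 428 in vriΔ679 at ZT2, and 384 and 353 in wild type at ZT2. The groups overlapped in the night comparison, and Cpr65Au was called in 0 of the 5 comparisons, at adjusted p of 0.63 for genotype at ZT14, 0.69 for genotype at ZT2, 0.757 for time in vriΔ679, 0.998 for time in wild type and 0.849 for genotype by time. Its exons overlap a listed antisense RNA. Cpr49Ag had 104 and 67.6 in vriΔ679 at ZT14, 132 and 124 in wild type at ZT14, 92.4 and 90.4 in vriΔ679 at ZT2, and 94.1 and 109 in wild type at ZT2, and its night difference of -0.61 ± 0.20 missed the threshold at 0.0724. Without the library labelled vriΔ679 ZT14 replicate 2 it was -0.29 (adjusted p = 0.093), and it was called without vriΔ679 ZT14 replicate 1 (adjusted p = 0.0063).

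The genes higher in vriΔ679 at night were 3. Cpr11B, on X, had 126 and 95.5 in vriΔ679 at ZT14, 54.3 and 56.3 in wild type at ZT14, 81.7 and 72.5 in vriΔ679 at ZT2, and 39.6 and 38.8 in wild type at ZT2. Both vriΔ679 groups were above both wild-type groups, and the log2 difference was 0.98 ± 0.15, adjusted p = 0.00667 at ZT14. The call ended without wild-type ZT14 replicate 1 or 2, at 0.0502 and 0.0501, and held without the library labelled vriΔ679 ZT14 replicate 2, at a log2 difference of 1.20. TwdlG, a Tweedle gene, had 12.3 and 10.02 in vriΔ679 at ZT14, 4.84 and 6.93 in wild type at ZT14, 7.25 and 8.13 in vriΔ679 at ZT2, and 5.24 and 6.44 in wild type at ZT2, with a log2 difference of 0.88 ± 0.20, adjusted p = 0.0227 (1.04 without that library). This call ended without wild-type ZT14 replicate 1 (0.124) or vriΔ679 ZT14 replicate 1 (0.0657). Cpr60D had 18.7 and 9.57 in vriΔ679 at ZT14, 4.51 and 6.63 in wild type at ZT14, 9.05 and 7.46 in vriΔ679 at ZT2, and 4.13 and 3.57 in wild type at ZT2, a difference of 1.22 ± 0.31, adjusted p = 0.0349 that was called with all 8 libraries and without the library labelled vriΔ679 ZT14 replicate 2, where it was 1.70, but not without any of the other 7 (adjusted p 0.0567 to 0.182).

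**Figure D2:**
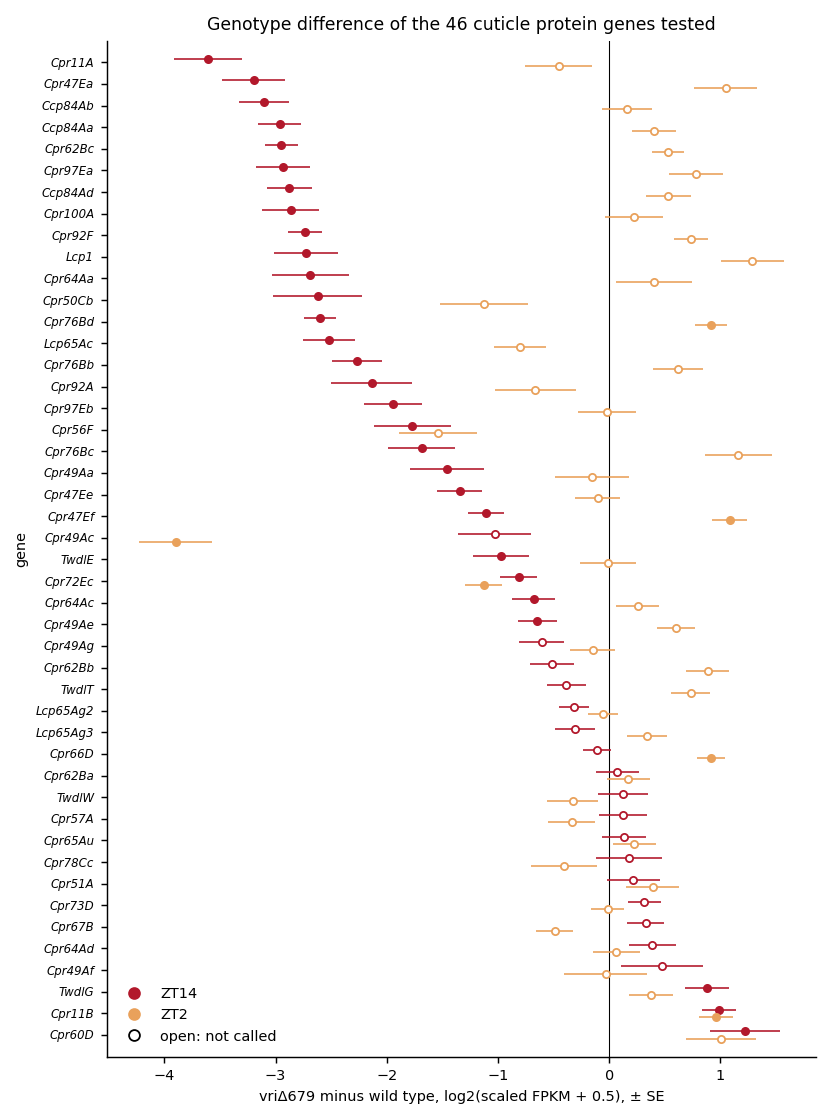
Log2 difference of vriΔ679 minus wild type, with its standard error (SE), for the 46 cuticle protein genes tested. Red marks ZT14 and orange ZT2, and open symbols were not called at adjusted p under 0.05. At ZT14, 26 genes are called left of 0 and 3 right of it, and at ZT2 2 are called left and 4 right.

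At ZT2 the genotypes differed in few of the cuticle protein genes. Of the 46, 2 were lower in vriΔ679 and 4 were higher, against 1.01% lower and 1.88% higher (2.88% in either direction) over all genes tested. The median log2 difference was 0.22 for the 46 and -0.00 over all genes tested. At an unadjusted p under 0.05 there were 22 of 46, against 14.4% of all genes. Without the library labelled vriΔ679 ZT14 replicate 2, 12 were higher (3.48% of all genes), and without vriΔ679 ZT14 replicate 1, 11 were (3.43%), although neither library belongs to the groups compared. Without wild-type ZT2 replicate 2 or vriΔ679 ZT2 replicate 2, 0 were higher, and without replicate 1 of either group 1 was.

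The 2 lower genes were Cpr49Ac and Cpr72Ec. Cpr49Ac (2R 12386666 to 12390057) had 0.102 and 0.0377 in vriΔ679 at ZT14, 0.626 and 0.695 in wild type at ZT14, 0.314 and 1.16 in vriΔ679 at ZT2, and 14.3 and 19.8 in wild type at ZT2. It was high in wild type in the morning alone. The log2 difference at ZT2 was -3.90 ± 0.33, adjusted p = 0.00207 by limma, a call that held whichever library was left out. Of the 8 libraries, 3 reached 1 FPKM, both of wild type at ZT2 and replicate 2 of vriΔ679 at ZT2. Cpr49Ac thus passed the filter mainly through the group where it was high. Its differences from that group, here, in time in wild type and in genotype by time, follow in part from the filter. Each of its 6 listed transcripts was above 0 FPKM in both wild-type libraries at ZT2, and 3 of the 6 were listed at 0 in all 4 libraries at ZT14. The neighbours Cpr49Ae and Cpr49Ag, in the same run on 2R, did not show this order of groups.

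Corneal lens proteins form a further group. Cpr72Ec, which encodes a protein of the lens, had 30.5 and 23.6 in vriΔ679 at ZT14, 45.8 and 49.3 in wild type at ZT14, 45.6 and 37.8 in vriΔ679 at ZT2, and 98.9 and 84.5 in wild type at ZT2. It was lower in vriΔ679 at both times, with log2 differences of -0.81 ± 0.17, adjusted p = 0.0177 at ZT14 and -1.13 ± 0.17, adjusted p = 0.0181 at ZT2. The night difference was -0.62 when the library labelled vriΔ679 ZT14 replicate 2 was left out. The night call ended without wild-type ZT14 replicate 1 (0.081) or 2 (0.111), and the morning call without any of the 4 libraries at ZT2 (adjusted p 0.0679 to 0.138). Cpr66D, the other lens protein among the members, had 4.07 and 4.49 in vriΔ679 at ZT14, 4.56 and 4.76 in wild type at ZT14, 37.4 and 34.9 in vriΔ679 at ZT2, and 20.6 and 17.3 in wild type at ZT2. Its 4 libraries at ZT14 lay at 4.07 to 4.76, with both vriΔ679 values just under both wild-type ones, and the night difference missed the threshold (log2 difference -0.11 ± 0.13, adjusted p = 0.537). At ZT2 it was higher in vriΔ679, by 0.92 ± 0.13, adjusted p = 0.0123, a call that ended without any of the 4 libraries at ZT2 (adjusted p 0.0509 to 0.112).

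The remaining genes higher in vriΔ679 at ZT2 were Cpr11B, Cpr47Ef and Cpr76Bd. Cpr11B was higher at both times, with 0.96 ± 0.15, adjusted p = 0.0221 at ZT2, but the morning call held only without either vriΔ679 ZT14 library and ended without any of the other 6 (adjusted p 0.0593 to 0.166). Cpr47Ef had 9.79 and 11.1 in vriΔ679 at ZT14, 21.2 and 25.0 in wild type at ZT14, 10.2 and 13.3 in vriΔ679 at ZT2, and 5.28 and 5.19 in wild type at ZT2. It was higher in vriΔ679 at ZT2, by 1.09 ± 0.16, adjusted p = 0.0173, and lower at ZT14. The morning call ended without wild-type ZT2 replicate 1 (0.114) or 2 (0.128) or vriΔ679 ZT2 replicate 2 (0.112). Cpr76Bd likewise differed in opposite directions at the 2 times, with 0.91 ± 0.14, adjusted p = 0.021 at ZT2, and its morning call ended without any of the 4 libraries at ZT2 (adjusted p 0.0975 to 0.17).

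In wild type, many cuticle protein genes were higher at ZT14 than at ZT2. Of the 46, 18 were higher at night and 4 were lower, against 3.91% higher and 2.72% lower over all genes tested. The median log2 difference was 0.53, against 0.00 over all genes tested. The count of higher genes was 9 without wild-type ZT14 replicate 2 or either wild-type ZT2 library, and the count of lower genes was 2 without any of the 4 wild-type libraries. Over all genes, 0.942% were higher without wild-type ZT14 replicate 2 and 1.02% without either wild-type ZT2 library. Whichever of the 4 wild-type libraries was left out, 0.426 to 0.992% of all genes were lower. The calls of 9 of the 18 higher genes held whichever library was left out. Between the wild-type ZT14 libraries, 38 of the 46 genes were higher in replicate 2 than in replicate 1.

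The 9 higher genes were Ccp84Aa, Ccp84Ad, Cpr47Ea, Cpr47Ef, Cpr62Bc, Cpr76Bb, Cpr76Bd, Cpr92F and Lcp1. Their per-library levels are above, apart from those of Cpr76Bb, which had 4.41 and 5.68 at ZT14 and 0.767 and 0.974 at ZT2 in wild type. The largest differences were those of Lcp1, with log2 2.76 ± 0.29, adjusted p = 0.00352, Cpr47Ea, with 2.74 ± 0.28, and Cpr92F, with 2.69 ± 0.15. Cpr62Bc was 5.97 times higher at ZT14, at log2 2.56 ± 0.15, adjusted p = 0.000446.

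The wild-type genes with the opposite order were Cpr49Ac, Cpr66D, Cpr67B and Cpr72Ec. Cpr49Ac fell by 3.90 on the log2 scale at ZT14 (adjusted p = 0.00144) and Cpr66D fell by 1.91 (adjusted p = 0.000538), and both calls held whichever library was left out. The fall of Cpr49Ac follows in part from the filter, as given above. Cpr67B, which lies on 3L, had 179 and 152 in vriΔ679 at ZT14, 118 and 146 in wild type at ZT14, 186 and 171 in vriΔ679 at ZT2, and 276 and 227 in wild type at ZT2. Its time difference in wild type was -0.93 ± 0.17, adjusted p = 0.0223, and that of Cpr72Ec was -0.94 ± 0.17, adjusted p = 0.0225. Both calls ended without any of the 4 wild-type libraries, at adjusted p of 0.0745 to 0.16 for Cpr67B and 0.0873 to 0.16 for Cpr72Ec.

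In vriΔ679 the night was low rather than high. Of the 46, 18 were lower at ZT14 than at ZT2 and 0 were higher, against 6.38% lower and 3.59% higher (9.97% in either direction) over all genes tested. The median log2 difference was -0.66, against -0.02 over all genes tested. At an unadjusted p under 0.05 there were 29 of 46, against 31% of all genes. The count of higher genes was 1 with equal totals, with quantile normalization or with the replicate block. When the library labelled vriΔ679 ZT14 replicate 2 was left out, 18 were lower and 5 higher, where 23.4% of all genes were lower and 22.3% higher. The count of lower genes rested on the morning libraries as well, at 3 without vriΔ679 ZT2 replicate 2 (1.36% of all genes), 10 without vriΔ679 ZT2 replicate 1 (1.84%) and 12 without any one wild-type library. In vriΔ679 at ZT14, 37 of the 46 genes were higher in replicate 1 than in the library labelled replicate 2.

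The calls of 3 of these genes held whichever library was left out. These were Cpr66D, at log2 -2.94 ± 0.13, adjusted p = 0.000173, Cpr11A, at -2.52 ± 0.30, adjusted p = 0.00579, and Ccp84Ab, at -1.77 ± 0.23, adjusted p = 0.00702. With the library labelled vriΔ679 ZT14 replicate 2 left out, they were -2.996, -2.41 and -1.72. Cpr66D was thus lower at night than in the morning in both genotypes. Cpr97Ea had a larger time difference than Ccp84Ab, -2.02 ± 0.24, adjusted p = 0.00617, but its call ended without vriΔ679 ZT2 replicate 2 (0.0503). Cpr76Bc had 1.93 and 0.691 in vriΔ679 at ZT14, 5.16 and 4.78 in wild type at ZT14, 5.39 and 5.35 in vriΔ679 at ZT2, and 2.26 and 2.00 in wild type at ZT2, and its time difference in vriΔ679 was -1.79 ± 0.30, adjusted p = 0.0171, a call that ended without vriΔ679 ZT2 replicate 1 (0.089) or 2 (0.088), with a value of -1.27 without the library labelled vriΔ679 ZT14 replicate 2. Cpr50Cb (2R 13794777 to 13805231) had 9.36 and 6.27 in vriΔ679 at ZT14, 40.7 and 60.9 in wild type at ZT14, 17.02 and 38.8 in vriΔ679 at ZT2, and 62.3 and 51.6 in wild type at ZT2, with -1.68 ± 0.40, adjusted p = 0.0445 in time. That call held only without vriΔ679 ZT2 replicate 1 and ended without any of the other 7 libraries (adjusted p 0.0736 to 0.159). Its genotype difference at ZT14, -2.62 ± 0.40, adjusted p = 0.00611, ended without wild-type ZT14 replicate 2 (0.0517) and was -2.34 without the library labelled vriΔ679 ZT14 replicate 2.

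The time differences of the genotypes come from separate libraries and can be set side by side. Their calls are not fully separate, since 1 fit gave both the same spread per gene. Of the 18 genes higher at night in wild type, 10 were lower at night in vriΔ679 and 0 were higher. Such opposite calls were not counted over all genes tested, so whether 10 is unusual cannot be said. With each comparison fitted on only its own groups, 6 of the 10 kept both calls. Of these 10, the opposite calls held for 10 without the library labelled vriΔ679 ZT14 replicate 2, for 9 without vriΔ679 ZT14 replicate 1, for 7 and 5 without wild-type ZT14 replicates 1 and 2, for 6 without either wild-type ZT2 library or vriΔ679 ZT2 replicate 1, and for 1 without vriΔ679 ZT2 replicate 2. Whichever library was left out, 0 of the 10 kept both calls throughout. Regardless of calls, 26 of the 46 had a negative time difference in vriΔ679 and a positive one in wild type, and 4 the reverse. Of all 10122 genes tested, 2882 had the first pattern and 2627 the reverse. The Pearson correlation of the 2 sets of differences across the 46 genes was -0.12 (Spearman -0.31), against 0.04 (Spearman -0.08) across all genes tested, given as a description, since genes are not independent.

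**Figure D3:**
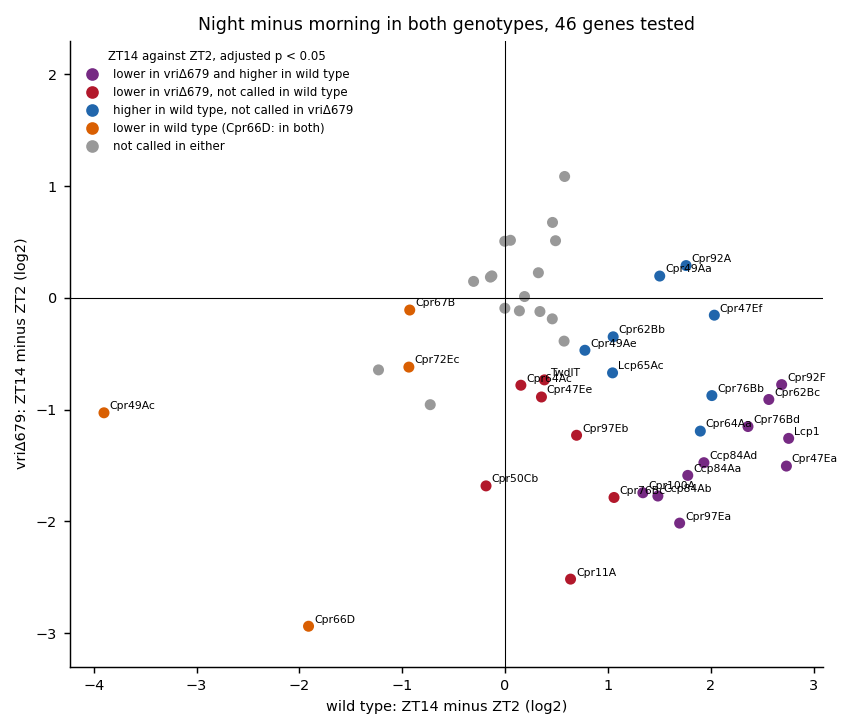
Log2 difference ZT14 minus ZT2 in vriΔ679 (vertical) against the same difference in wild type (horizontal) for the 46 genes tested. Purple points, 10 genes, are called lower in vriΔ679 and higher in wild type, and Cpr49Ac stands alone at the left with -3.90 in wild type.

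Genotype by time is the time difference in vriΔ679 minus that in wild type. It was negative and called for 22 of the 46 genes and positive for 1, against 5.88% and 2.37% (8.25% with either sign) over all genes tested. The median was -1.18, against -0.01 over all genes tested. The counts were 24 negative and 5 positive without the library labelled vriΔ679 ZT14 replicate 2, where 21.7% of all genes were negative and 19.9% positive. The count of negative genes was 14 without wild-type ZT14 replicate 2, and 15 and 13 without wild-type ZT2 replicates 1 and 2. The count of positive genes was 0 without either wild-type ZT14 library or wild-type ZT2 replicate 2. Over all genes, 1.98% were negative without wild-type ZT14 replicate 2, and 2.59% and 2.08% without wild-type ZT2 replicates 1 and 2. The calls of 13 genes held whichever library was left out, namely Ccp84Aa, Ccp84Ab, Ccp84Ad, Cpr100A, Cpr11A, Cpr47Ea, Cpr47Ef, Cpr62Bc, Cpr76Bb, Cpr76Bd, Cpr92F, Cpr97Ea and Lcp1.

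Among those 13, Cpr47Ea had the largest value, -4.24 ± 0.40, adjusted p = 0.00245 by limma (-3.79 without the library labelled vriΔ679 ZT14 replicate 2). Lcp1 followed with -4.02 ± 0.40, adjusted p = 0.00314 (-3.93 without that library), and Cpr97Ea with -3.71 ± 0.35, adjusted p = 0.00236 (-3.34). The smallest adjusted p belonged to Cpr76Bd, Cpr62Bc and Cpr92F, each 0.000828, with values of -3.51 ± 0.20, -3.48 ± 0.21 and -3.47 ± 0.22. Cpr49Ac was the positive one, 2.87 ± 0.46, adjusted p = 0.0153, and its call ended when wild-type ZT2 replicate 2 (0.0692), wild-type ZT14 replicate 1 (0.0587) or wild-type ZT14 replicate 2 (0.0679) was left out, and with a pseudocount of 0.1 (0.0929).

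The genome order of these genes was compared with their values, since many lie in runs of related copies. By arm, 8 of the 11 tested genes on 3R were lower in vriΔ679 at ZT14, as were 8 of 18 on 3L, 8 of 14 on 2R, 1 of 2 on X and the 1 on 2L. In some runs the tested genes had the same calls in 2 comparisons. The 3 tested genes of the Ccp84 run, the 3 tested genes of the 47E run (Cpr47Ea, Cpr47Ee and Cpr47Ef) and the 3 tested genes of the 76B run (Cpr76Bb, Cpr76Bc and Cpr76Bd) were lower at ZT14 and negative in genotype by time. The order of groups differed within the 47E and 76B runs. By group means, Cpr76Bc was highest in vriΔ679 at ZT2 (5.37, against 4.97 in wild type at ZT14) and Cpr76Bd in wild type at ZT14 (47.1). Cpr47Ee was lowest in vriΔ679 at ZT14 (9.63) and Cpr47Ef in wild type at ZT2 (5.24). The genotype by time call of Cpr47Ee, -1.24 ± 0.28, adjusted p = 0.0445, held without either vriΔ679 ZT14 library and ended without any of the other 6 (adjusted p 0.0975 to 0.147), and that of Cpr76Bc, -2.85 ± 0.42, adjusted p = 0.0114, ended without wild-type ZT2 replicate 2 (0.0552) or wild-type ZT14 replicate 2 (0.053). Leaving out the library labelled vriΔ679 ZT14 replicate 2, those values were -0.95 for Cpr47Ee and -2.32 for Cpr76Bc. The call of Cpr76Bc at ZT14, -1.69 ± 0.30, adjusted p = 0.0107 (-1.16 without that library), ended without wild-type ZT14 replicate 1 (0.0686) or 2 (0.0657).

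Other runs were mixed. In the run at 65A on 3L, 17 genes within 6130386 to 6161589, Cpr65Au was level while Lcp65Ac was 6.29 times lower in vriΔ679 at night, and 12 of the 17 stayed under 1 FPKM everywhere. At 62B, Cpr62Bc differed at night while Cpr62Ba, at 0.980 to 1.80 in all libraries, was not called in any comparison, and Cpr62Bb had 57.4 and 40.0 in vriΔ679 and 60.6 and 77.6 in wild type at ZT14, which missed the threshold (adjusted p = 0.0991). At 49A, Cpr49Ac was highest in the wild-type morning and Cpr49Ae, with 141 and 104 in vriΔ679 at ZT14, 179 and 202 in wild type at ZT14, 171 and 165 in vriΔ679 at ZT2, and 121 and 101.3 in wild type at ZT2, in the wild-type night. The night difference of Cpr49Ae, -0.64 ± 0.17, adjusted p = 0.04, was -0.42 (adjusted p = 0.0493) without the library labelled vriΔ679 ZT14 replicate 2. The call ended without any of the 6 libraries outside vriΔ679 at ZT14 (adjusted p 0.0659 to 0.193).

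**Figure D4:**
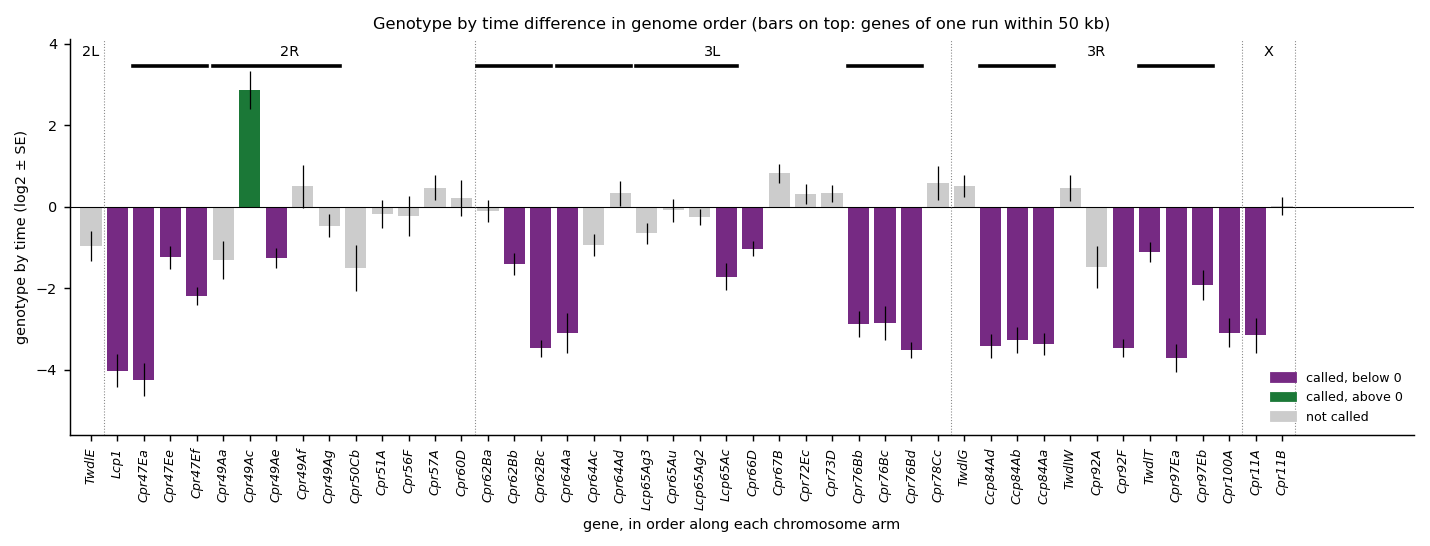
Genotype by time, the time difference in vriΔ679 minus that in wild type (log2 ± SE), for the 46 genes tested in their order along each chromosome arm. Black lines on top mark genes of 1 run within 50 kb of each other, and colours mark calls. The Ccp84, 47E and 76B runs lie below 0 throughout, and Cpr49Ac stands at 2.87 among neighbours at or below 0.51.

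Genes that make and harden cuticle, which the symbol rule did not take, were set beside the members at ZT14. Of 20 tested genes of chitin synthesis and remodelling, 12 were lower in vriΔ679 and 1 was higher, of 5 chitin-binding obstructor genes 4 and 0, of 20 tanning and pigmentation genes 11 and 0, and of 13 other structural cuticle genes 9 and 2. Their median log2 differences were -1.05, -1.89, -0.83 and -1.56. Over all genes tested 12.8% were lower. Without wild-type ZT14 replicate 2 the lower counts were 8, 3, 5 and 6 (3.98% of all genes). When the library labelled vriΔ679 ZT14 replicate 2 was left out, they were 11, 4, 11 and 9 lower (26.7% of all genes) and 4, 1, 3 and 2 higher (24.9%). In genotype by time, 8, 4, 8 and 7 of them were negative and called, and 1, 0, 0 and 0 positive. Over all genes tested, 5.88% were negative and 2.37% positive in that comparison. Leaving out single libraries moved the negative counts, which were fewest without wild-type ZT14 replicate 2 or wild-type ZT2 replicate 2.

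The chitin synthase gene kkv had 3.46 and 3.40 in vriΔ679 at ZT14, 25.4 and 29.8 in wild type at ZT14, 12.3 and 18.2 in vriΔ679 at ZT2, and 10.5 and 10.6 in wild type at ZT2. As with Cpr62Bc, wild type at ZT14 was high and vriΔ679 at ZT14 low, with a log2 difference of -2.83 ± 0.19, adjusted p = 0.000326 by limma (-2.81 without the library labelled vriΔ679 ZT14 replicate 2). The chitin deacetylase gene verm had 38.4 and 43.5 in vriΔ679 and 205 and 242 in wild type at ZT14, a log2 difference of -2.43 ± 0.16 (-2.51 without that library). The related serp had 40.8 and 29.6 in vriΔ679 and 162 and 191 in wild type at ZT14, a log2 difference of -2.32 ± 0.20 (-2.08). The deacetylase Cda5 had 2.57 and 6.80 in vriΔ679 and 41.2 and 46.5 in wild type at ZT14, at -3.23 ± 0.37 (-3.84 without that library). Among the obstructor genes, whose proteins bind chitin, obst-A had 9.48 and 9.22 in vriΔ679 and 76.6 and 86.7 in wild type at ZT14, with a log2 difference of -3.06 ± 0.16, adjusted p = 0.000195 (-3.03 without that library). Gasp and Peritrophin-A had log2 differences of -1.89 ± 0.13 and -2.22 ± 0.15 (-1.91 and -2.14 without it).

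Of the hardening enzymes, laccase2, the phenol oxidase of cuticle tanning, had 4.77 and 8.39 in vriΔ679 and 32.0 and 42.4 in wild type at ZT14, a log2 difference of -2.45 ± 0.26, adjusted p = 0.00175 (-2.81 without the library labelled vriΔ679 ZT14 replicate 2). The yellow family genes yellow-e and yellow-d2 had log2 differences of -2.58 ± 0.19 and -2.25 ± 0.21 (-2.32 and -1.93 without it). Among the other structural genes, CG16884 had 115.4 and 119 in vriΔ679 and 657 and 917 in wild type at ZT14, at -2.72 ± 0.17, adjusted p = 0.000309, and CG16885 had -2.48 ± 0.15 (-2.73 and -2.37 without that library). The elastic protein gene resilin had 2.16 and 3.78 in vriΔ679 and 19.3 and 41.6 in wild type at ZT14, at -3.10 ± 0.58, adjusted p = 0.0159, a call that ended without wild-type ZT14 replicate 2 or vriΔ679 ZT14 replicate 1, at adjusted p up to 0.0919 (-3.43 without that library). All of these genes except resilin kept their night call whichever library was left out.

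Of 3 tested eye lens and pseudocone proteins outside the symbol rule, 2 were lower in vriΔ679 at ZT14. These were drosocrystallin and Gasp, which was also counted among the obstructor genes. Drosocrystallin, listed as Cry (a separate gene from the clock gene cry), had 56.1 and 47.8 in vriΔ679 and 222 and 265 in wild type at ZT14, a log2 difference of -2.22 ± 0.16, adjusted p = 0.000442 that held whichever library was left out (-2.09 without the library labelled vriΔ679 ZT14 replicate 2). The gene retinin, described after its values were seen, had 2850.2 and 1929 in vriΔ679 and 3096 and 2957 in wild type at ZT14, and its difference of -0.37 ± 0.24, adjusted p = 0.288 missed the threshold (-0.07 without that library).

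Markers of other head tissues also moved with genotype at night, where 12.8% of all genes were lower and 9.53% higher. The summed level of 16 muscle markers was 6827 and 6272 in vriΔ679 and 11665 and 12755 in wild type at ZT14, and 7 of 14 tested were lower and 1 higher. The 8 trachea markers summed to 238 and 248 in vriΔ679 and 768 and 903 in wild type at ZT14, with 6 of 8 lower. That list shares Gasp, verm, serp, pio and dp with the cuticle lists. Fat body markers summed to 3416 and 2419 in vriΔ679 and 8595 and 4763 in wild type at ZT14, with 6 of 12 lower and 1 higher. Hemocyte and basement membrane markers summed to 288 and 264 in vriΔ679 and 407 and 469.8 in wild type at ZT14, with 6 of 12 lower. Glia markers summed to 998 and 1044 in vriΔ679 and 1714 and 1665 in wild type at ZT14, with 5 of 9 lower. Lower counts without wild-type ZT14 replicate 2 were 3 (muscle), 4 (trachea), 6 (fat body), 4 (hemocyte) and 0 (glia), where 3.98% of all genes were lower. With the library labelled vriΔ679 ZT14 replicate 2 left out, they were 8 (muscle), 8 (trachea), 5 (fat body), 7 (hemocyte) and 5 (glia), where 26.7% of all genes were lower. The glia count was also 0 without wild-type ZT14 replicate 1, and 3 without any one library at ZT2.

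Photoreceptor markers went the other way at night. They summed to 48463 and 46975 in vriΔ679 and 29624 and 25989 in wild type at ZT14, with 6 of 13 higher and 1 lower, 3 higher without either wild-type ZT14 library, and 8 higher and 2 lower without the library labelled vriΔ679 ZT14 replicate 2. At ZT2 they summed to 33672 and 31585 in vriΔ679 and 35682 and 38224 in wild type. Neuron markers summed to 1476 and 2078 in vriΔ679 and 1800.4 and 2086 in wild type at ZT14, with 0 of 11 lower and 1 higher, near the share over all genes. Leaving out the library labelled vriΔ679 ZT14 replicate 2, 4 were lower and 3 higher. In that fit, 26.7% of all genes were lower and 24.9% higher. Without wild-type ZT14 replicates 1 and 2 in turn, 1.99% and 1.81% of all genes were higher. In each of these lists 0 markers were at 0 in all libraries. At ZT2 muscle markers summed to 8102 and 7808 in vriΔ679 and 7716 and 7893 in wild type. Trachea markers summed there to 510 and 573 against 461 and 424, and fat body markers to 11617 and 7589 against 14337 and 9385. Hemocyte and basement membrane markers had 348 and 335 against 590 and 440, and glia markers 1353 and 1168 against 1610 and 1426. The sums of these last lists were thus lower in vriΔ679 at both times. The part of these shifts in the values of the cuticle protein genes was not tested.

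Transcription factors and junction genes of the epidermis summed to 355 and 402 in vriΔ679 and 462 and 455 in wild type at ZT14, and to 399.5 and 416 in vriΔ679 and 410.0 and 414 in wild type at ZT2. Of 13 tested, 1 (arm) was lower at night and 0 were higher, with a median log2 difference of -0.24, against 12.8% lower and 9.53% higher over all genes. When the library labelled vriΔ679 ZT14 replicate 2 was left out, 7 were lower, against 26.7% of all genes, and without any one wild-type or vriΔ679 ZT2 library, 0 were. Ecdysone response and moulting regulators had 3 of 17 lower and a median of -0.32, with 10 lower without the library labelled vriΔ679 ZT14 replicate 2, where 26.7% of all genes were lower, and 1 without wild-type ZT14 replicate 2. The apical matrix genes of the zona pellucida family had 3 of 6 lower and a median of -0.73, with 4 lower without the library labelled vriΔ679 ZT14 replicate 2 and 0 without wild-type ZT14 replicate 2.

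**Figure D5:**
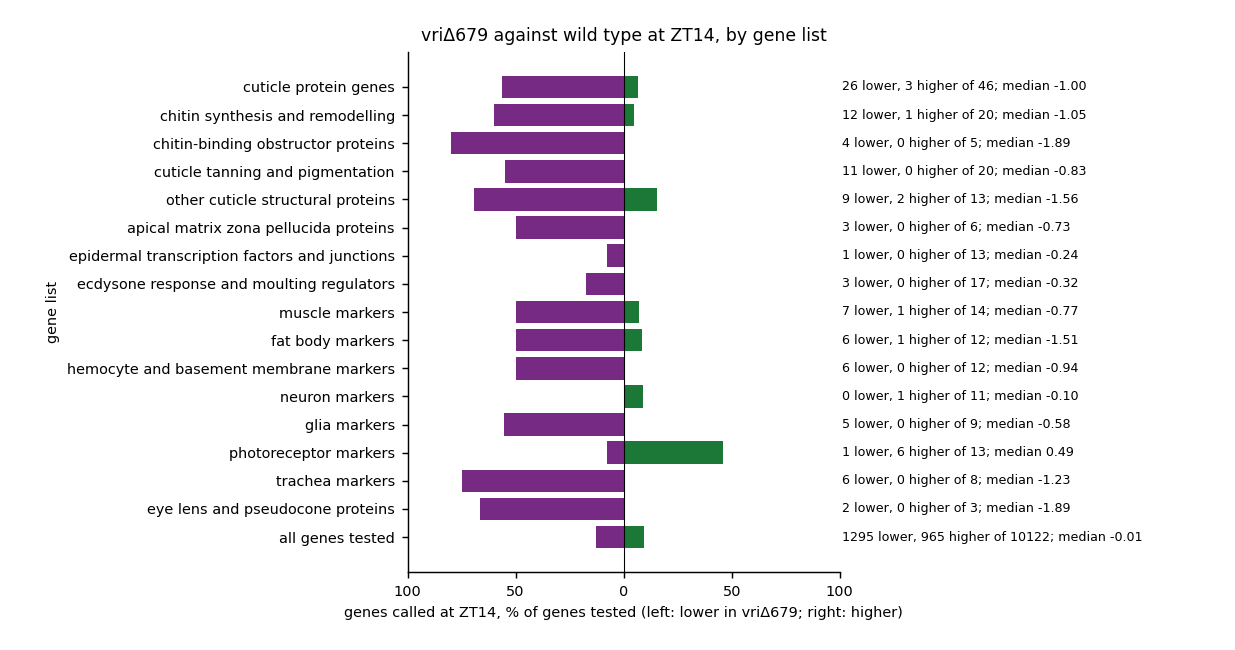
Share of tested genes called lower (left) and higher (right) in vriΔ679 at ZT14 for the cuticle protein genes, 15 gene lists and all genes tested, with counts and median log2 differences. The cuticle protein genes stand at 26 lower and 3 higher of 46, and photoreceptor markers at 1 lower and 6 higher of 13.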

How the data were processed

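Poly(A) RNA of heads was sequenced in 8 libraries. For each, the authors deposited a table of 35411 transcripts with FPKM and, per the file headers, per-base coverage. FPKM was tested, and the coverage signal the authors deposited served only to recover read depth (49.3 to 65.4 M mapped reads, for 75 nt reads). Per the submitters' processing notes, tools were STAR 2.6.1d and StringTie with build dm6. The strand setting of the counting is not given in the sources used here. The tables gave all coordinates, and 111 of the 117 members had the same ones in the Ensembl annotation.

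FPKM was summed per symbol and divided by median-of-ratios factors over 12078 genes (0.968 to 1.04). The 10122 genes that reached 1 FPKM in 2 or more libraries entered 1 limma 3.58.1 fit (R 4.3.3, statmod 1.5.0, eBayes with trend and robust options) of the 4 groups on log2(scaled FPKM + 0.5), a scale that understates the change of low genes. Each of the 5 comparisons had its own Benjamini-Hochberg adjustment across the tested genes, with 0.05 as the threshold. The fit was tested on simulated data.

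The members and lists were chosen with earlier results of these data known. Of 215 list symbols, 212 matched. Genes named were, per comparison, up to 12 lower and 6 higher called members with the largest differences, the 6 members with the highest mean level, up to 10 members called in genotype by time, and up to 3 called genes per list. Alternatives were other filters, scalings and pseudocounts, eBayes without its options, only the groups compared, a replicate block and each library left out. Protein and promoter sequences were not analysed here.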

Additional observations from a re-analysis of the deposited data

Results flagged for a closer look

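The genotype difference at ZT14 was tested against that at ZT2 in 1 fit (genotype by time). It differed for 18 of the 26 named cuticle protein genes. These were picked partly by their calls in this comparison, so that count follows in part from the choice of genes. Of all 46 tested, 22 were negative and called and 1 was positive, against 8.25% of all genes with either sign. Positive values mean that the genotype difference was more positive at ZT14. The log2 values were -4.24 for Cpr47Ea, -4.02 for Lcp1, -3.71 for Cpr97Ea, -3.51 for Cpr76Bd, -3.48 for Cpr62Bc and -3.47 for Cpr92F. The Ccp84 genes followed, with -3.41 for Ccp84Ad, -3.37 for Ccp84Aa and -3.26 for Ccp84Ab. Next were Cpr11A at -3.15, Cpr64Aa at -3.09, Cpr100A at -3.09, Cpr76Bc at -2.85 and Cpr47Ef at -2.19. Smaller ones were Cpr97Eb at -1.93, Cpr49Ae at -1.25 and Cpr66D, a lens protein gene, at -1.03.

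Cpr49Ac stood alone with a positive value of 2.87, which follows in part from the filter, as given above. Calls that ended without single libraries were those of Cpr64Aa (without either wild-type ZT2 library or wild-type ZT14 replicate 2, adjusted p 0.0506 to 0.0638), Cpr97Eb (without any wild-type library or vriΔ679 ZT2 replicate 2, 0.0643 to 0.114), Cpr49Ae (without any library except those of vriΔ679 at ZT14, 0.0707 to 0.122) and Cpr66D (without wild-type ZT2 replicate 2, either wild-type ZT14 library or either vriΔ679 ZT2 library, 0.0682 to 0.0986). Those of Cpr76Bc and Cpr49Ac are given above. Without the library labelled vriΔ679 ZT14 replicate 2, all 18 kept their call and sign.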

How the results depend on the processing

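The counts of called genes among the 46 tested are given as lower and higher in vriΔ679 for genotype, lower and higher at ZT14 for time, and negative and positive for genotype by time. With each library left out in turn, counts ranged from 17 to 25 lower and 0 to 5 higher for genotype at ZT14, from 1 to 3 and 0 to 12 for genotype at ZT2, from 3 to 18 and 0 to 5 for time in vriΔ679, from 2 to 5 and 9 to 19 for time in wild type, and from 13 to 24 and 0 to 5 for genotype by time. Where 1 library was left in a group, its spread was taken from the other groups. With only the groups compared, counts were 1 higher for genotype at ZT14, 11 higher for genotype at ZT2 and 8 lower for time in vriΔ679. With equal totals, 8 were higher for genotype at ZT2 and 1 for time in vriΔ679, and quantile normalization gave 1 higher there. Genotype by time had 2 positive genes with no filter and 0 with a pseudocount of 0.1. The cause of these shifts was not tested. Of the named genes' differences that passed the threshold with all libraries or under an alternative, 0 changed sign under these alternatives. Some that missed it did, such as time in vriΔ679 for Cpr49Ag, -0.12 with all libraries and 0.19 without the library labelled vriΔ679 ZT14 replicate 2.

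The labels state no pairing by replicate number, and the main fit used none. Deviations from group means of same-numbered libraries correlated at -0.143 to 0.270 across genes over the 6 pairs of groups. With the replicate block the counts were 26 lower and 3 higher for genotype at ZT14, 3 and 4 at ZT2, 18 and 1 for time in vriΔ679, 5 and 18 for time in wild type, and 21 and 1 for genotype by time. A crossed pairing of the wild-type libraries, chosen after seeing the data because their correlation was -0.143, gave 5 lower and 17 higher for time in wild type, against 4 and 18 with no pairing.

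The 2 libraries a group limit every comparison, and vriΔ679 ZT14 had the widest spread, with a median absolute log2 difference between its replicates of 0.401 over the 46 genes, against 0.301 in wild type at ZT14, 0.220 in vriΔ679 at ZT2 and 0.144 in wild type at ZT2. The fit gave all groups 1 spread per gene. Low genes near 1 FPKM rest on few reads, and the 71 genes not tested allow no statement on change.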
